A study of Mus musculus with 5 samples.

Results

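CD8 T cells were followed through 4 foreign body granulomas and an elicited cell population of the mouse. They were the cells of the authors' NK/T class that held at least 1 UMI (a tagged, captured transcript) of Cd3d, Cd3e or Cd3g, at least 1 UMI of Cd8a or Cd8b1, no UMI of Cd4 or Foxp3, and fewer than 2 UMIs of Tcrg-C1, Trdc and Cd163l1 together. By this rule 129 of 41191 cells were CD8 T cells, and the NK/T class as a whole held 1557 cells. Sponge granulomas gave 53 at 2 weeks and 7 at 4 weeks and silk granulomas 11 at 2 weeks and 8 at 4 weeks, in all 79, against 50 in Control.

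The study profiled cells of granulomas, nodules of macrophages and connective tissue that grow round a material the body cannot clear, 2 or 4 weeks after sponge or silk was placed. Control was a library of cells elicited with thioglycollate, an irritant broth commonly injected into the peritoneum, and labelled as macrophages. Each of the 5 groups was 1 droplet library, with no genotype, strain, age or number of animals in the labels. Granuloma and Control therefore also differ in tissue and in how cells were obtained, and these cannot be told apart from the effect of the implanted material.

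CD8 T cells recognise peptides that infected or altered cells display on MHC class I. Before they meet such a peptide they circulate in a resting, naive state that is held by the transcription factors Tcf7, Lef1 and Klf2 and fed by interleukin 7, and they enter lymph nodes guided by the chemokine receptor Ccr7. Activated cells divide, lose these molecules, enter tissues, and kill through granzymes and perforin or signal through interferon gamma and chemokines. Under repeated stimulation they display checkpoint receptors such as Pdcd1.

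The cells matched alpha-beta T cells by genes that the rule did not use, and these genes do not tell CD8 from CD4 T cells. At least 1 UMI of Trac, Trbc1 or Trbc2, the constant parts of the alpha-beta T cell receptor, was found in 125 of the 129 cells (96.9%). A UMI of Trac was seen in 74.7% of granuloma CD8 T cells and 54% of Control CD8 T cells, against 0.105% and 0.0253% of the monocyte, macrophage and dendritic cells (Mo-Mac) of the same libraries. The receptor kinase Lck was seen in 64.6% of granuloma CD8 T cells and 62% of Control CD8 T cells, against 0.0718% and 0.114% of Mo-Mac cells. The median depth was 3434 UMIs per CD8 T cell in granulomas and 4446.5 in Control, and 4233 and 7720.5 UMIs per Mo-Mac cell. No UMI of Ncr1, Klrb1c or Tyrobp, genes of NK cells and the last also of myeloid cells, was found in 65 of 79 granuloma cells and 34 of 50 Control cells. Just inside the rule were 27 cells with a single Cd8 UMI, 8 with a single CD3 UMI and 3 with 1 gamma-delta receptor UMI. Just outside it were 298 CD3-bearing cells with neither Cd8 nor Cd4 UMIs, 6 with both, 2 Cd8-bearing cells with gamma-delta UMIs and 4 Cd8-bearing cells without a CD3 UMI.

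Libraries were uneven, and so was the material that came with the cells. The summed CD8 T cells held 198745 and 40985 UMIs in sponge at 2 and 4 weeks, 45567 and 33040 UMIs in silk at 2 and 4 weeks, and 240816 UMIs in Control, so sponge at 2 weeks supplied most of the granuloma sum. Of 41038 distinct cell barcodes 153 occurred in more than 1 library, and none of the 1557 NK/T barcodes did so as an NK/T cell. Cells with 3 or more UMIs of 8 macrophage genes numbered 2 and 0 among the CD8 T cells of sponge at 2 and 4 weeks and 2 and 1 in silk, against 7 in Control, with up to 159 such UMIs in a silk cell and 78 in a Control cell. The summed level of 15 macrophage markers was 991, 415, 16810 and 666 CPM (UMIs scaled to a sum of 1000000 for the summed cells) in the granulomas, sponge before silk and 2 weeks before 4, against 11449 CPM in Control. Where a count of calls in a gene list differs without these cells, that is given beside it.

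CD8 T cells were a smaller share of T cells in 3 of the 4 granulomas than in Control, and about as large a share in sponge at 2 weeks. Of the CD3-bearing NK/T cells they made up 22.9% (53 of 231; exact 95% interval 17.7 to 28.9%) in the 2-week and 3.37% (7 of 208; 1.36 to 6.81%) in the 4-week sponge granuloma, and 7.24% (11 of 152; 3.67 to 12.6%) in the 2-week and 7.34% (8 of 109; 3.22 to 14.0%) in the 4-week silk granuloma, against 24.2% (50 of 207; 18.5 to 30.6%) in Control. The intervals of sponge at 4 weeks and of both silk libraries lay below that of Control, whereas that of sponge at 2 weeks overlapped it. They cover counting error only, and no test across conditions was possible with 1 library a group.

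The balance of CD8 against CD4 T cells had the same order. Of CD8 plus CD4 T cells, CD8 T cells were 45.7% (53 of 116) and 10.1% (7 of 69) in sponge at 2 and 4 weeks and 14.5% (11 of 76) and 16.3% (8 of 49) in silk at 2 and 4 weeks, against 50.5% (50 of 99) in Control. CD4 T cells, the helper and regulatory cells, were 63, 62, 65 and 41 cells in those granulomas and 49 in Control. With every cell thinned to 1000 UMIs before the rule, the CD8 shares were 54.1%, 5.88%, 17.6% and 16.7% in the granulomas, against 54.3% in Control. Of all cells, CD8 T cells were 0.429% and 0.0909% in sponge at 2 and 4 weeks and 0.108% and 0.427% in silk at 2 and 4 weeks, against 0.553% in Control.

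**Figure D1:**
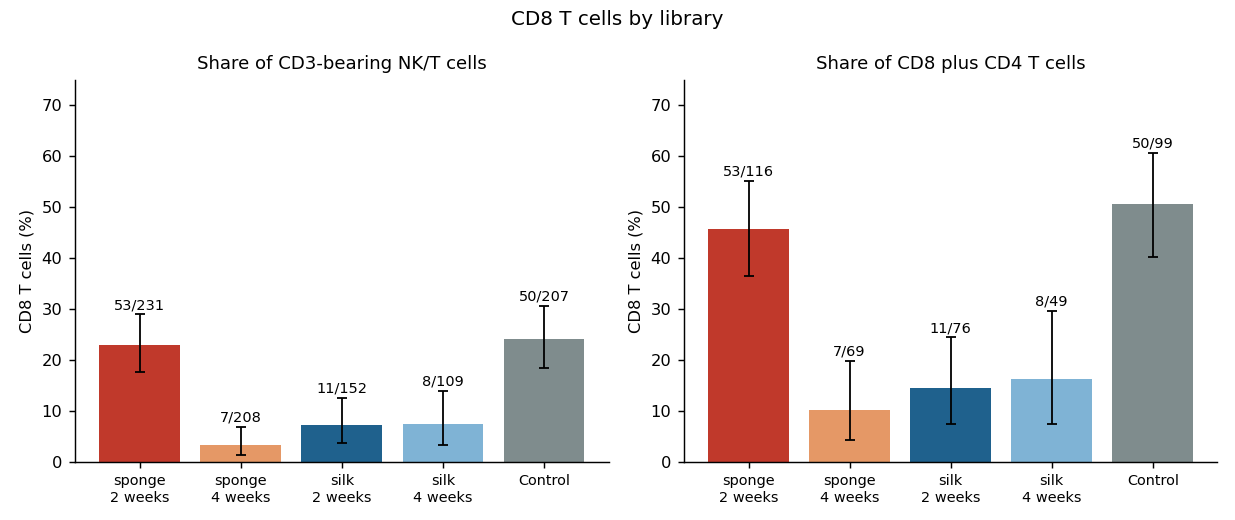
CD8 T cells as a percent of CD3-bearing NK/T cells (left) and of CD8 plus CD4 T cells (right) in each library, with exact 95% intervals for counting error and the cell numbers above the bars. Sponge at 2 weeks and Control stand at 22.9% and 24.2% on the left, and the other granulomas at 3.37 to 7.34%.

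Within the CD8 T cells, a granzyme UMI was more frequent in each granuloma than in Control, and a UMI of Ccr7 or Lef1 less frequent. Both differences were largest in sponge at 2 weeks, which supplied 53 of the 79 granuloma cells. A UMI of Gzma, Gzmb or Gzmk was found in 41 of 53 and 2 of 7 cells in sponge at 2 and 4 weeks and 7 of 11 and 3 of 8 cells in silk at 2 and 4 weeks, against 4 of 50 cells in Control. A UMI of Ccr7 or Lef1 was found in 12 of 53, 5 of 7, 4 of 11 and 3 of 8 cells of those granulomas, against 46 of 50 cells in Control. Cells with UMIs of both sets were few, 7 of 79 in granulomas and 3 of 50 in Control. The 7 cells of sponge at 4 weeks stood nearest to Control in this respect, with 3 that had only Ccr7 or Lef1, 2 that had both and none that had only granzymes.

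**Figure D2:**
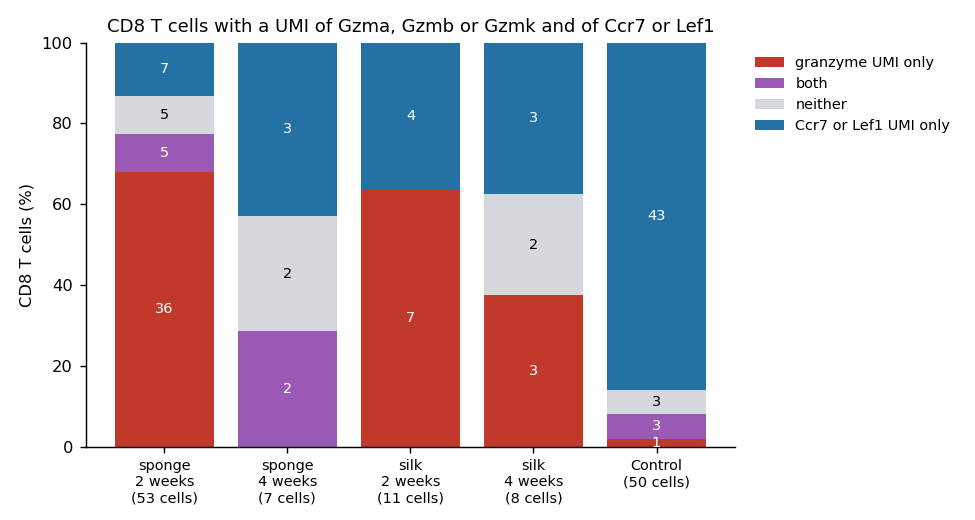
Percent of CD8 T cells with a UMI of a granzyme gene (Gzma, Gzmb or Gzmk), of a naive gene (Ccr7 or Lef1), of both or of neither, by library, with cell numbers in the bars. In sponge at 2 weeks 36 of 53 cells had granzyme UMIs only, and in Control 43 of 50 had Ccr7 or Lef1 UMIs only.

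These 5 genes were chosen after their values had been seen, so the split is a description. At 1000 UMIs per cell, the granzyme set was found in 28 of 51, 0 of 7, 4 of 11 and 2 of 8 cells of the granulomas in that order, against 2 of 50 in Control. Sponge at 4 weeks was then not above Control. Ccr7 or Lef1 was then found in 5 of 51, 2 of 7, 2 of 11 and 3 of 8 cells, against 22 of 50 in Control. In Mo-Mac cells, Gzmb was seen in 0.0957% of granuloma cells and 0.0253% of Control cells, and Ccr7 in 2.04% and 0.417%.

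Across all genes, more transcripts were higher than lower in granuloma CD8 T cells. A gene was called when its UMIs, summed over the CD8 T cells of the 4 granulomas, gave a CPM at least 2-fold from Control with 50 CPM added to both sums, and when each granuloma lay on that side of Control. Of 1727 genes with at least 100 CPM and 20 UMIs in the higher sum, 147 (8.51%) were called higher and 50 (2.9%) lower. Without the cells carrying macrophage UMIs, 157 of 1608 genes (9.76%) were called higher and 42 (2.61%) lower, and 124 of the 147 and 27 of the 50 genes were called again. Without the cells carrying UMIs of Ncr1, Klrb1c or Tyrobp, 180 genes were called higher and 35 lower, and 126 of the 147 and 24 of the 50 genes were called again. With TMM scaling of the libraries 123 genes were called higher and 96 lower. Without sponge at 2 weeks the counts were 124 higher and 55 lower, of which 91 and 36 were shared with the full comparison. Below, a log2 ratio has 50 CPM added to both sides, a plain fold does not, and over all 3843 genes with 20 or more UMIs the median log2 ratio was 0.11.

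**Figure D3:**
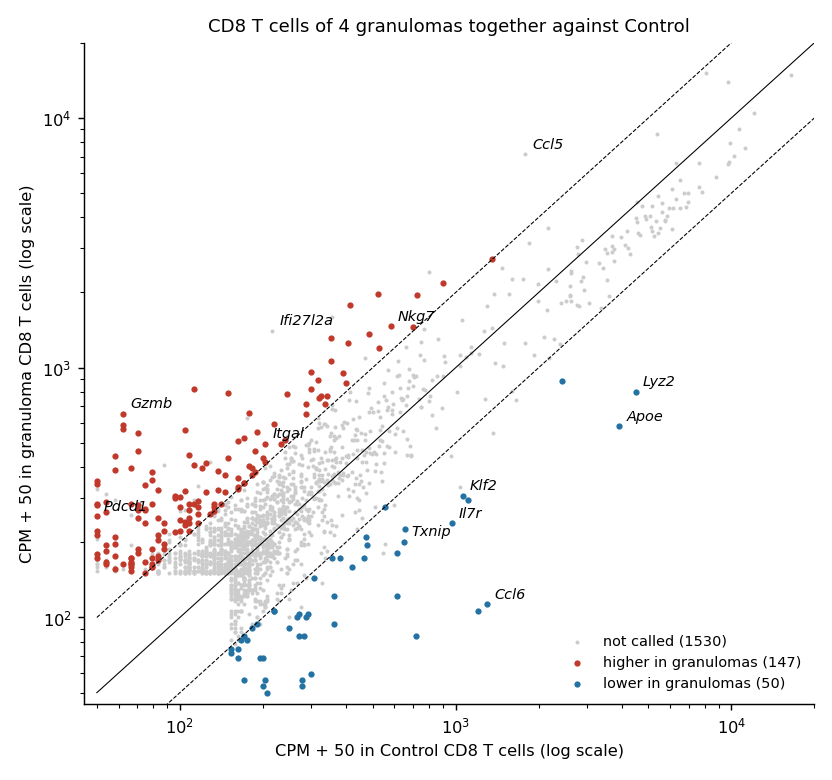
Expression in the summed CD8 T cells of 4 granulomas (vertical) against Control (horizontal), in CPM plus 50 on log axes, for the 1727 genes past the limits. Dashed lines mark a 2-fold difference, red points the 147 genes called higher and blue points the 50 called lower.

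Gzmb, a granule protease that triggers death of the target cell, had the highest log2 ratio, 3.39, of the genes called higher. It stood at 870.5 and 73.2 CPM in sponge at 2 and 4 weeks and 307 and 60.5 CPM in silk at 2 and 4 weeks, against 12.5 CPM in Control. All 4 granulomas lay above Control, and sponge at 2 weeks was highest. The plain ratio of the summed granulomas to Control was 48.4 (95% counting interval 16.3 to 237), with a UMI in 40 of 79 granuloma cells and 1 of 50 Control cells and at most 25 UMIs in a cell. Without sponge at 2 weeks the log2 ratio was 1.74 in place of 3.39.

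Other cytotoxic genes divided. Nkg7, a granule protein needed for killing, had 1791 and 756 CPM in sponge at 2 and 4 weeks and 593 and 1119.8 CPM in silk at 2 and 4 weeks, against 532 CPM in Control, a plain ratio of 2.67 (95% counting interval 2.19 to 3.27), and was called higher, but its log2 ratio was 0.54 without sponge at 2 weeks, in place of 1.33. Gzma, a second granzyme, had 367 and 0 CPM in sponge at 2 and 4 weeks and 285 and 969 CPM in silk at 2 and 4 weeks, against 78.9 CPM in Control, and it was not called since sponge at 4 weeks had no UMI. Its UMIs came from 8 of 79 granuloma cells and 2 of 50 Control cells. Gzmk, a granzyme of memory-like cells, had 287 and 0 CPM in sponge at 2 and 4 weeks and 176 and 30.3 CPM in silk at 2 and 4 weeks, against 16.6 CPM in Control and missed the call for the same reason. Prf1, the pore protein that lets granzymes in, had 65.4 and 0 CPM in sponge at 2 and 4 weeks and 87.8 and 182 CPM in silk at 2 and 4 weeks, against 74.7 CPM in Control, and its plain ratio of 0.967 (95% counting interval 0.499 to 1.90) spans 1. Fasl, the death ligand, was at 24.4 to 136 CPM across the granulomas, against 24.9 CPM in Control, with sponge at 4 weeks just under Control. Of 12 cytotoxic genes measured (9 past the limits), 4 were called higher (Gzmb, Nkg7, Ctsw and Srgn; Ctsw not without cells with macrophage UMIs) and none lower, with a median log2 ratio of 1.35, and the median was 1.58 and -0.19 in sponge at 2 and 4 weeks and 1.12 and 0.94 in silk at 2 and 4 weeks.

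Among secreted signals, interferon gamma transcripts appeared in granulomas and were not seen in Control. Ifng had 156 and 73.2 CPM in sponge at 2 and 4 weeks and 43.9 and 151 CPM in silk at 2 and 4 weeks, against 0 CPM in Control. With Control set at the floor of 3 counts, the granuloma sum was 10.3-fold higher. The lower 95% counting limit of the ratio, with the 0 counts of Control, was 8.04. UMIs came from 18 of 79 granuloma cells and 0 of 50 Control cells, where 0 of 50 allows up to 7.11% of cells with a UMI at this depth (exact interval). Ccl4, a chemokine that attracts macrophages and T cells, had 116 and 1464 CPM in sponge at 2 and 4 weeks and 154 and 212 CPM in silk at 2 and 4 weeks, against 29.1 CPM in Control, and sponge at 4 weeks was highest, with 60 UMIs in 4 cells, 35 of them in 1 cell. Ccl5, a chemokine stored by memory cells, was the most abundant of these at 8971 and 1000.4 CPM in sponge at 2 and 4 weeks and 3029 and 9079.9 CPM in silk at 2 and 4 weeks, against 1739.9 CPM in Control, and it was not called because sponge at 4 weeks lay below Control. Tnf was low, at 0 to 43.9 CPM across the granulomas, against 4.15 CPM in Control. Of 6 such genes measured (5 past the limits) 2 were called higher, Ifng and Ccl4 (and Tgfb1 without cells with macrophage UMIs), and none lower, with a median log2 ratio of 1.70.

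Among checkpoint genes, Pdcd1, Ctla4 and Tox were called higher. Pdcd1, the inhibitory receptor PD-1, had 231 and 73.2 CPM in sponge at 2 and 4 weeks and 109.7 and 333 CPM in silk at 2 and 4 weeks, against 0 CPM in Control. With the same floor it was 16.4-fold higher (lower 95% counting limit of the ratio 13.0), and every granuloma lay above Control. Ctla4, which competes for costimulatory ligands, had 302 and 48.8 CPM in sponge at 2 and 4 weeks and 87.8 and 60.5 CPM in silk at 2 and 4 weeks, against 4.15 CPM in Control, with 21 of its 24 positive granuloma cells in sponge at 2 weeks. Tox, a nuclear factor of chronically stimulated T cells, had 257 and 97.6 CPM in sponge at 2 and 4 weeks and 65.8 and 60.5 CPM in silk at 2 and 4 weeks, against 24.9 CPM in Control, and its log2 ratio was 0.74 without sponge at 2 weeks, in place of 1.67. Lag3 and Havcr2, 2 further inhibitory receptors, reached 81.7 and 72.3 CPM in the summed granulomas, against 0 and 8.31 CPM in Control, and neither was called. Vsir, an inhibitory ligand and receptor, went the other way at 113 CPM in the summed granulomas, against 208 CPM in Control, and was not called. Of 7 checkpoint genes measured (4 past the limits) 3 were called higher, Pdcd1, Ctla4 and Tox, and none lower, with a median log2 ratio of 1.40.

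Costimulatory receptors were divided. Icos had 267 and 73.2 CPM in sponge at 2 and 4 weeks and 132 and 393 CPM in silk at 2 and 4 weeks, against 29.1 CPM in Control, a plain ratio of 8.11 (95% counting interval 3.75 to 20.8). Tnfrsf1b, a receptor for tumour necrosis factor, was even across granulomas at 262 and 268 CPM in sponge at 2 and 4 weeks and 219 and 272 CPM in silk at 2 and 4 weeks, against 45.7 CPM in Control. Slamf6, a surface marker of less differentiated T cells, was called lower at 55.3 and 48.8 CPM in sponge at 2 and 4 weeks and 65.8 and 30.3 CPM in silk at 2 and 4 weeks, against 220.1 CPM in Control. Of 12 costimulatory genes measured (9 past the limits) 3 were called higher, Cd28 with these 2 (Cd28 not without cells with macrophage UMIs), and 1 lower, with a median log2 ratio of 0.94.

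Genes switched on by T cell receptor signalling were the list with the most calls. Nr4a1, an early response nuclear receptor used as a reporter of antigen receptor signalling, had 252 and 610.0 CPM in sponge at 2 and 4 weeks and 132 and 363 CPM in silk at 2 and 4 weeks, against 0 CPM in Control, and its relative Nr4a3 had 413 and 756 CPM in sponge at 2 and 4 weeks and 417 and 999 CPM in silk at 2 and 4 weeks, against 12.5 CPM in Control. Nr4a2 was at 176 to 397 CPM across the granulomas, against 16.6 CPM in Control. Every granuloma lay above Control for all 3 genes. Of 17 genes of the list measured (13 past the limits), 10 were called higher and none lower, and the median log2 ratio of 1.62 was similar in all granulomas, from 1.32 in sponge at 4 weeks to 1.79 in silk at 4 weeks. Cd69, another early activation gene, was not called, at 367 and 488 CPM in sponge at 2 and 4 weeks and 307 and 545 CPM in silk at 2 and 4 weeks, against 349 CPM in Control.

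The Nr4a genes were higher in other cells of the same granulomas too. Nr4a1 had 251, 403, 307 and 342 CPM in Mo-Mac cells of the 4 granulomas in that order, against 7.92 CPM in Control Mo-Mac cells, and 356, 538, 262 and 468 CPM in granuloma fibroblasts, against 15.5 CPM in Control fibroblasts. Nr4a1, Nr4a2 and Nr4a3 all stood at the same 15.5 CPM in Control fibroblasts, a small sum, so these values rest on few UMIs. Nr4a3 had 117 to 183 CPM in granuloma Mo-Mac cells and 1.40 CPM in Control Mo-Mac cells. Lyz2, a macrophage gene that CD8 T cells should lack, was at 1.43 to 2.38% of its Mo-Mac level in CD8 T cells of 3 granulomas, 24.5% in silk at 2 weeks and 23.2% in Control. Nr4a1 was at 42.9 to 151% of its Mo-Mac level in granuloma CD8 T cells. Heat shock and dissociation genes, which respond to cell handling, were also called higher in 5 of 22 measured (21 past the limits), against 8.51% of all genes. Their list had a median log2 ratio of 0.78, and 8 calls without cells with macrophage UMIs. The part of handling and of RNA from other cells in the Nr4a difference was not tested.

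Hspa1b, an inducible heat shock protein, was uneven, with 267 and 1000.4 CPM in sponge at 2 and 4 weeks and 21.9 and 30.3 CPM in silk at 2 and 4 weeks, against 0 CPM in Control. The sponge libraries were high, and the silk libraries low. Fos and Jun, early genes that cell handling can raise, were not called, at 179 CPM in the summed granulomas, against 216 CPM in Control, and 192 CPM in the summed granulomas, against 212 CPM in Control.

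Residency and homing genes gave a mixed picture. Itgae, the integrin of epithelial resident memory cells, was almost absent, with 1 UMI in silk at 2 weeks and none in the other granulomas or in Control. Cxcr6, a chemokine receptor of tissue T cells, had 166 and 48.8 CPM in sponge at 2 and 4 weeks and 43.9 and 60.5 CPM in silk at 2 and 4 weeks, against 16.6 CPM in Control and was called higher, with a log2 ratio of 0.59 without sponge at 2 weeks, in place of 1.37. Rgs1, a brake on chemokine receptor signalling that is common in tissue T cells, had 508 and 73.2 CPM in sponge at 2 and 4 weeks and 198 and 363 CPM in silk at 2 and 4 weeks, against 8.31 CPM in Control, and the transcription factor Bhlhe40 had 272 and 171 CPM in sponge at 2 and 4 weeks and 198 and 182 CPM in silk at 2 and 4 weeks, against 4.15 CPM in Control. Of 9 residency genes measured (8 past the limits) 5 were called higher, Cxcr6, Rgs1, Rgs2, Bhlhe40 and Nr4a1, and none lower, with a median log2 ratio of 1.87. Nr4a1 is also in the receptor signalling list. Like Nr4a1, Rgs2 was higher in granuloma Mo-Mac cells too, at 267 to 532 CPM, against 104 CPM in Control Mo-Mac cells. Rgs1 had 363 to 607 CPM in granuloma Mo-Mac cells, against 373 CPM in Control Mo-Mac cells. The part of other cells in these CD8 values was not tested. Itgal, an integrin for crossing vessel walls, had 397 and 244 CPM in sponge at 2 and 4 weeks and 439 and 999 CPM in silk at 2 and 4 weeks, against 154 CPM in Control, a plain ratio of 2.90 (95% counting interval 2.01 to 4.29). Cxcr3, a receptor for interferon-induced chemokines, was at 43.9 to 122 CPM across the granulomas, against 20.8 CPM in Control, and was under the limits. Of 12 homing receptors measured (10 past the limits) 3 were called higher (Cxcr4, Cxcr6 and Itgal) and none lower, with a median log2 ratio of 0.40. Without cells with macrophage UMIs Cxcr4 was not called, Itgb2 was called higher and S1pr1 lower.

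Ly6a, a surface protein that rises on activated mouse T cells, had 745 and 48.8 CPM in sponge at 2 and 4 weeks and 285 and 242 CPM in silk at 2 and 4 weeks, against 12.5 CPM in Control, the second highest log2 ratio of the genes called higher, at 3.23. Its positive cells were 43 of 79 granuloma cells and 3 of 50 Control cells. It was also higher in other cells of the granulomas, with a UMI in 16.7% of granuloma and 0.442% of Control Mo-Mac cells, and 880.3 to 1565 CPM in granuloma fibroblasts, against 0 CPM in Control fibroblasts, and their part in the CD8 value was not tested. The Control fibroblast sum held few UMIs, so its 0 CPM is a loose limit. Ly6c2, a marker of memory and effector CD8 T cells, had 1117 and 1293 CPM in sponge at 2 and 4 weeks and 988 and 393 CPM in silk at 2 and 4 weeks, against 419 CPM in Control, and silk at 4 weeks was below Control. Of 14 effector memory surface genes measured Ly6a was called higher and none lower, with a median log2 ratio of 0.65, and 1 call among the 12 past the limits is near the 8.51% of all genes. Of 13 effector and memory transcription factors measured (8 past the limits) 2 were called higher, Bhlhe40 and Rora, with a median of 0.59, and Rora had 236 and 73.2 CPM in sponge at 2 and 4 weeks and 132 and 545 CPM in silk at 2 and 4 weeks, against 20.8 CPM in Control.

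Several genes of the naive state were called lower in granulomas. Il7r, the receptor for the survival factor interleukin 7, had 136 and 219.6 CPM in sponge at 2 and 4 weeks and 395 and 182 CPM in silk at 2 and 4 weeks, against 918 CPM in Control, a plain ratio of 0.205 (95% counting interval 0.152 to 0.274). It was found in 20 of 79 granuloma cells (25.3%) and 43 of 50 Control cells (86%), against 23.4% of granuloma and 35.0% of Control Mo-Mac cells. Klf2, which keeps the egress receptor S1pr1 switched on, had 55.3 and 829.6 CPM in sponge at 2 and 4 weeks and 307 and 696 CPM in silk at 2 and 4 weeks, against 1009 CPM in Control. Sponge at 2 weeks was far lower than the other granulomas, and the log2 ratio was -0.72 without it, in place of -1.78. A UMI of Klf2 was also less frequent in granuloma Mo-Mac cells, at 49.4%, against 94.5% in Control Mo-Mac cells, which were deeper. Lef1 had 65.4 and 195 CPM in sponge at 2 and 4 weeks and 198 and 272 CPM in silk at 2 and 4 weeks, against 415 CPM in Control. It was again lowest in sponge at 2 weeks, and without that library its log2 ratio was -0.80, in place of -1.43.

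Ccr7 and Tcf7 did not meet the call. Ccr7 had 136 and 390.4 CPM in sponge at 2 and 4 weeks and 241 and 242 CPM in silk at 2 and 4 weeks, against 303 CPM in Control, and Tcf7, a factor of naive and memory cells, had 121 and 537 CPM in sponge at 2 and 4 weeks and 285 and 575 CPM in silk at 2 and 4 weeks, against 394 CPM in Control. Sponge at 4 weeks, and for Tcf7 also silk at 4 weeks, lay above Control, and sponge at 2 weeks well below it. Of 12 naive and central memory genes measured (10 past the limits) 3 were called lower (Lef1, Il7r and Il6ra) and none higher, with a median log2 ratio of -0.72. Without the cells with macrophage UMIs Il6ra, at 68.4 CPM in Control, was not called, and S1pr1 was called lower, with a log2 ratio of -1.07 in place of -0.94. Of 13 quiescence genes measured (12 past the limits) 5 were called lower and none higher, with a median of -0.50. They were Txnip, a brake on glucose uptake, at 73.2 to 186 CPM across the granulomas, against 598 CPM in Control, Klf3 at 126 to 424 CPM across the granulomas, against 606 CPM in Control, Klf2, Tsc22d3 and Slfn1.

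The upstream sequences of a pair of genes called higher and a pair called lower are shown because these 4 carry the contrast between granzyme and checkpoint expression on the one side and the naive state on the other. They are the 250 bases before the RefSeq start on GRCm38.p6, 5′ to 3′ on the gene's strand, for Gzmb (chr14:56262335-56262584 on the minus strand), Pdcd1 (chr1:94052554-94052803 on the minus strand), Klf2 (chr8:72318812-72319061 on the plus strand) and Il7r (chr15:9529877-9530126 on the minus strand). Capitals mark matches, on either strand, to TGANTCA (AP-1), TGTGGT (RUNX) or AAAGGTCA (the NR4A response element).
Gzmb: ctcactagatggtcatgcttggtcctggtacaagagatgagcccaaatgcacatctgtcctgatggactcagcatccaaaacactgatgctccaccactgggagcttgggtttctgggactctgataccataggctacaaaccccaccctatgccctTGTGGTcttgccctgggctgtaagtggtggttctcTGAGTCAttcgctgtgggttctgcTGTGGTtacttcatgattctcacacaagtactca
Pdcd1: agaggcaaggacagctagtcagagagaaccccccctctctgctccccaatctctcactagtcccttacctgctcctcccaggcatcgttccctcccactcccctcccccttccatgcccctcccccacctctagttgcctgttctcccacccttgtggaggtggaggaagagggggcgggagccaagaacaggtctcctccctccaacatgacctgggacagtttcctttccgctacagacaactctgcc
Klf2: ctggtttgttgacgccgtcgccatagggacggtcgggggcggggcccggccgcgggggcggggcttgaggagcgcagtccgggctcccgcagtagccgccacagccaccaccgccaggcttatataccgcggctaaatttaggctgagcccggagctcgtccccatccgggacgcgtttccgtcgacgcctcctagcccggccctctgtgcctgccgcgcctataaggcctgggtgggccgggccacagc
Il7r: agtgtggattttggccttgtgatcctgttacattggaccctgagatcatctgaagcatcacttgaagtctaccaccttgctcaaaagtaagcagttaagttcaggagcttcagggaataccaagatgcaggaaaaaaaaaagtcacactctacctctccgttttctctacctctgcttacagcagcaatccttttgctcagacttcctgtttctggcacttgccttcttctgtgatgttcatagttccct

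The Gzmb window held TGTGGT at 93 and 34 bases and TGAGTCA at 58 bases before the start, none of them overlapping. The windows of Pdcd1, Klf2 and Il7r held none of the 3 motifs, which says only that these letters are not in these windows. Another annotation, GENCODE, starts Il7r at chr15:9530176 on the minus strand, so the Il7r window lies inside that gene model. It starts Klf2 at chr8:72319033, so the Klf2 window reaches into that gene model. Bases before the GENCODE start of Il7r were not searched. Of 32851 windows of the same length, 6.75% held TGANTCA, 14.0% held TGTGGT and 1.34% held AAAGGTCA on either strand.

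**Figure D4:**
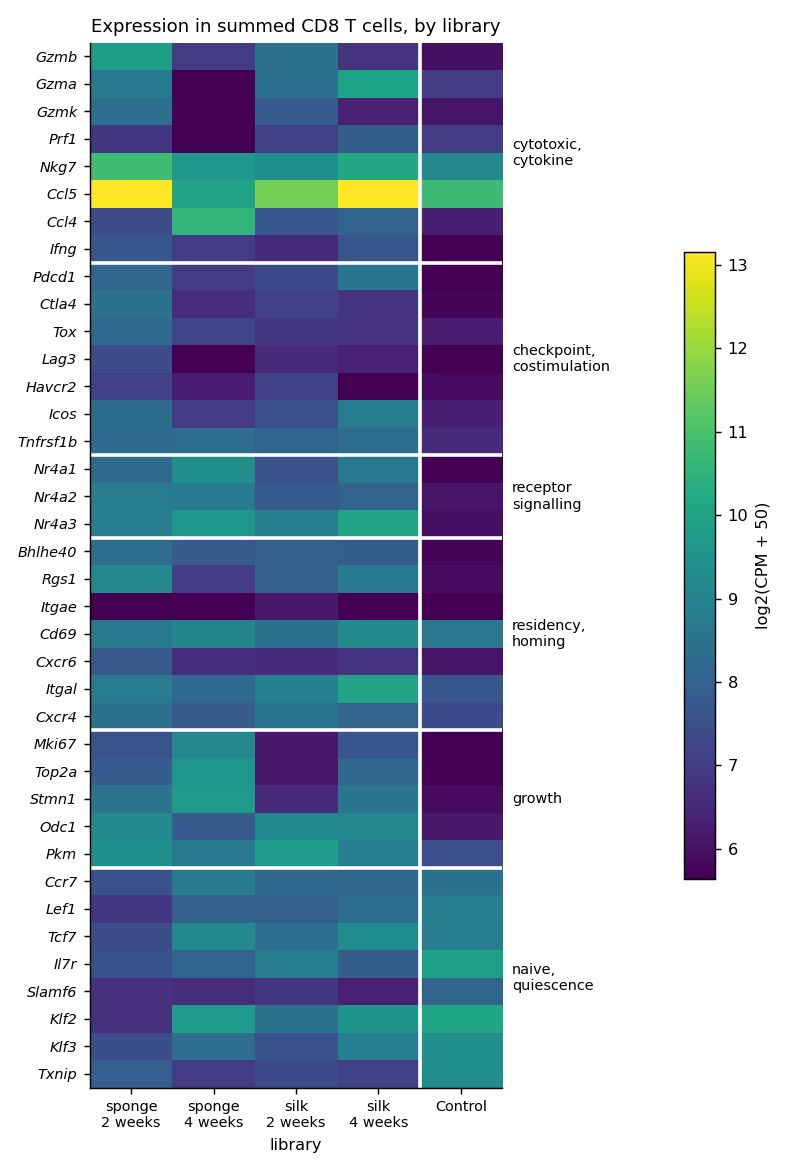
Expression of selected genes in the summed CD8 T cells of each library, as log2(CPM + 50), with genes grouped by role and Control in the right column. Gzmb, Pdcd1 and the Nr4a genes are brighter in each granuloma than in Control, and Il7r, Slamf6, Klf3 and Txnip darker.

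Transcripts of dividing-cell genes were seen in granulomas, and those of Mki67 and Top2a were not seen in Control. Mki67, a protein of dividing nuclei, had 141 and 512 CPM in sponge at 2 and 4 weeks and 21.9 and 151 CPM in silk at 2 and 4 weeks, against 0 CPM in Control. Its UMIs came from 12 of 79 granuloma cells and 0 of 50 Control cells, and 1 of the 2 positive cells of sponge at 4 weeks held 12 of them. Top2a, the DNA untangling enzyme, had 176 and 732 CPM in sponge at 2 and 4 weeks and 21.9 and 242 CPM in silk at 2 and 4 weeks, against 0 CPM in Control, and Stmn1, a microtubule regulator, had 317 and 781 CPM in sponge at 2 and 4 weeks and 43.9 and 333 CPM in silk at 2 and 4 weeks, against 8.31 CPM in Control. Of 16 proliferation genes measured (11 past the limits) 5 were called higher (Mki67, Top2a, Stmn1, Hmgn2 and Pcna) and none lower, with a median log2 ratio of 1.30, from 0.29 in silk at 2 weeks to 1.93 in sponge at 4 weeks. At least 2 UMIs of Mki67, Top2a and Stmn1 together were found in 9 of 53 and 2 of 7 cells of sponge at 2 and 4 weeks and 0 of 11 and 1 of 8 cells of silk at 2 and 4 weeks, against 0 of 50 in Control.

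Several metabolic genes of activated cells were called higher. Odc1, the first enzyme of polyamine synthesis, had 553 and 171 CPM in sponge at 2 and 4 weeks and 549 and 515 CPM in silk at 2 and 4 weeks, against 20.8 CPM in Control, a plain ratio of 24.1 (95% counting interval 10.1 to 75.1). Pkm, the last enzyme of glycolysis, had 629 and 390.4 CPM in sponge at 2 and 4 weeks and 834 and 424 CPM in silk at 2 and 4 weeks, against 129 CPM in Control, and Hif1a, the oxygen-sensing factor, had 488 and 73.2 CPM in sponge at 2 and 4 weeks and 417 and 212 CPM in silk at 2 and 4 weeks, against 58.1 CPM in Control. Odc1 and Hif1a were also higher in other cells of the granulomas. Granuloma Mo-Mac cells had 142 to 335 CPM of Odc1, against 33.6 CPM in Control Mo-Mac cells. For Hif1a these were 220 to 607 CPM and 119 CPM. Granuloma fibroblasts had 77.1 to 117 CPM of Odc1, against 46.6 CPM in Control fibroblasts. Their Hif1a was at 230 to 651 CPM, against 62.1 CPM in Control fibroblasts. Both Control fibroblast values rest on a few UMIs. The part of other cells in the CD8 values was not tested. Of 13 glycolysis and hypoxia genes measured (11 past the limits) 5 were called higher and none lower, with a median log2 ratio of 1.42, but 0.15 in silk at 4 weeks. Of 9 polyamine and amino acid transport genes measured (8 past the limits) 3 were called higher, Odc1, Slc3a2 and Slc38a2, and none lower, with a median of 0.67, and Slc38a2 was not called without cells with macrophage UMIs.

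Interferon response genes were not called in either direction among 13 measured (9 past the limits), and Zbp1 alone was called higher without cells with macrophage UMIs, at 138 CPM in granulomas, against 22.8 CPM in Control. Ifi27l2a, an interferon-induced gene, was highest in sponge at 2 weeks, above Control in silk at 2 weeks and below it in both 4-week granulomas, with 2023 and 146 CPM in sponge at 2 and 4 weeks and 439 and 121 CPM in silk at 2 and 4 weeks, against 166 CPM in Control. Of 18 genes of the T cell receptor complex measured (16 past the limits) 2 were called higher and none lower, with a median log2 ratio of 0.42. That count is near the 8.51% of all genes, and 1 was called higher without cells with macrophage UMIs. Of the 2 genes, Trbc1 had 513 and 2245 CPM in sponge at 2 and 4 weeks and 549 and 1513 CPM in silk at 2 and 4 weeks, against 266 CPM in Control.

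**Figure D5:**
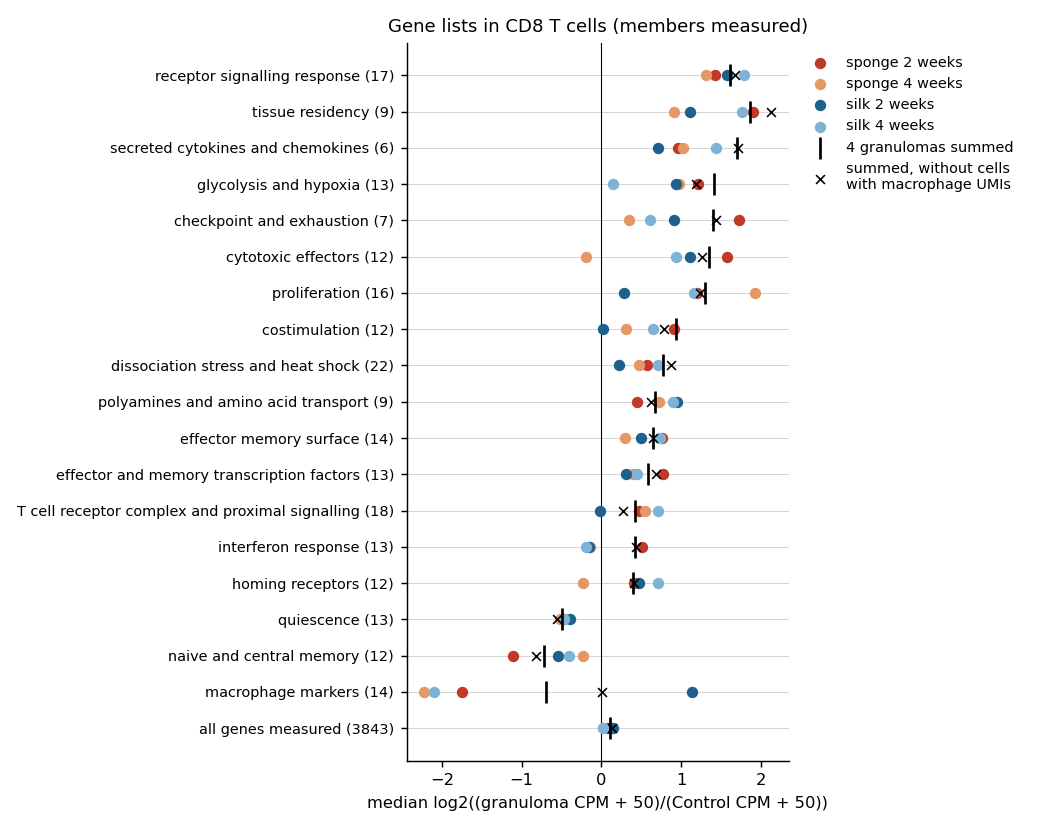
Median log2 ratio to Control of the measured members of each gene list (number in brackets) in CD8 T cells of each granuloma (coloured points), of the 4 granulomas summed (bars) and of the sum without cells with macrophage UMIs (crosses). Receptor signalling genes lie at 1.32 to 1.79 in all 4 granulomas, naive genes at -1.11 to -0.23, and macrophage markers at -2.22 to 1.14.

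The lowest ratios of all belonged to genes of macrophages. Ccl6, a macrophage chemokine, had 95.6 and 24.4 CPM in sponge at 2 and 4 weeks and 0 and 0 CPM in silk at 2 and 4 weeks, against 1249.9 CPM in Control, Apoe had 106 and 48.8 CPM in sponge at 2 and 4 weeks and 3182 and 60.5 CPM in silk at 2 and 4 weeks, against 3870.2 CPM in Control, and Lyz2, the macrophage lysozyme, had 247 and 171 CPM in sponge at 2 and 4 weeks and 3840.5 and 242 CPM in silk at 2 and 4 weeks, against 4443 CPM in Control. Control and, for Apoe and Lyz2, silk at 2 weeks were high, and those are the libraries with the CD8 T cells that carried most macrophage UMIs. Ccl6 had no UMI in silk at 2 weeks. The part of macrophage material in these ratios was not tested. Without such cells the log2 ratio was -0.35 in place of -3.53 for Ccl6, -1.29 in place of -2.75 for Apoe and -0.47 in place of -2.49 for Lyz2. Of these Apoe was still called lower, as was Wfdc17, the second lowest gene, at 44.7 CPM in granulomas, against 376 CPM in Control, a log2 ratio of -2.17 in place of -3.49. Since the cells were left out for their macrophage UMIs, a shift of macrophage genes towards 0 follows from the choice. The same step moved Il7r to -2.33, Klf2 to -1.45 and Gzmb to 3.37.

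Collagen transcripts were seen in granuloma CD8 T cells. Col3a1 had 216 and 146 CPM in sponge at 2 and 4 weeks and 43.9 and 30.3 CPM in silk at 2 and 4 weeks, against 0 CPM in Control, in 36 of 79 granuloma cells and 0 of 50 Control cells, with at most 3 UMIs in a cell. In Mo-Mac cells it was at 164, 189, 34.5 and 25.3 CPM in the same granulomas, against 0.0133 CPM in Control, and in fibroblasts at 21002 to 28584 CPM in granulomas, against 978 CPM in Control.

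CD4 T cells of the same libraries gave list medians of their own. The receptor signalling list had a median log2 ratio to Control of 1.62 in CD8 T cells and 1.65 in CD4 T cells, the naive list -0.72 and -0.75, the checkpoint list 1.40 and 0.96, and the cytotoxic list 1.35 and 0.36. The difference between these responses was not tested.

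CD8 and CD4 T cells were compared directly in the 3 libraries with at least 10 cells of both, sponge at 2 weeks, silk at 2 weeks and Control, with the library as a block. By edgeR's quasi-likelihood test with Benjamini-Hochberg adjustment over 3286 genes, 0 (0%) were higher and 0 (0%) lower in CD8 T cells, 279 genes had an unadjusted p under 0.05, and DESeq2 called 6 higher and 9 lower. Without the cells that carried macrophage UMIs, 45 of 2782 genes (1.62%) were called higher and 45 (1.62%) lower. Silk at 2 weeks was kept there with 9 CD8 T cells, under the limit of 10. The libraries differ in condition, and the fit has 2 residual degrees of freedom.

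Of the genes with the smallest p-values, none of which passed, Ly6c2 had the smallest, followed by Gzma and Il1rl1. Gzma had 367, 285 and 78.9 CPM in CD8 T cells of sponge at 2 weeks, silk at 2 weeks and Control, against 22.2, 0 and 5.55 CPM in CD4 T cells, a log2 difference of 4.70 (edgeR adjusted p = 0.11). Its CD8 UMIs came from 5 of 53, 1 of 11 and 2 of 50 cells, and 18 of the 19 in Control from 1 cell. Ccl5 differed by 3.97 (edgeR adjusted p = 0.183), Nkg7 by 3.00 and Ly6c2 by 3.27, all higher in CD8 T cells in 3 of 3 libraries. Without macrophage-bearing cells, which left 9 CD8 T cells in silk at 2 weeks, the edgeR adjusted p was 0.00181 for Gzma and Ccl5 and 0.00411 for Nkg7. In the other direction, Il1rl1, the interleukin 33 receptor, had 20.1, 0 and 0 CPM in CD8 T cells, against 248, 600 and 139 CPM in CD4 T cells, a log2 difference of -4.68 (edgeR adjusted p = 0.11). Icos differed by -2.20, Il2ra, the high-affinity part of the interleukin 2 receptor, by -3.32 and Rora by -2.62, lower in CD8 T cells in 3 of 3 libraries.

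Gzmb did not separate the 2 kinds of T cell. It had 870.5, 307 and 12.5 CPM in CD8 T cells of those 3 libraries, against 707, 473 and 0 CPM in CD4 T cells, a log2 difference of 0.13 (edgeR adjusted p = 0.978). Pdcd1 differed by 0.95 (edgeR adjusted p = 0.806) and Klf2 by 0.14 (edgeR adjusted p = 0.967), and neither test shows that the cells are alike.

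Against NK cells, which kill without an antigen receptor, CD8 T cells had 50 of 3677 genes (1.36%) higher and 76 (2.07%) lower by the same test. The NK cells were NK/T cells with Ncr1 or Klrb1c UMIs and no CD3 UMI, so receptor genes such as Trac lie close to what chose the cells. Bcl11b, a T lineage factor, had 236, 176 and 233 CPM in CD8 T cells of sponge at 2 weeks, silk at 2 weeks and Control, against 2.63, 4.35 and 11.3 CPM in NK cells (log2 difference 5.39, edgeR adjusted p = 7.18e-05). Lat and Themis, adaptors of the T cell receptor, were higher by 4.66 and 8.69, the second against no UMI in the NK cells. Ccr7 was higher by 4.18 and Il7r by 2.64 (edgeR adjusted p = 0.00326 and 0.00408).

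Gzma and Prf1 were lower in CD8 T cells than in NK cells. Gzma had 367, 285 and 78.9 CPM in CD8 T cells, against 4608, 4416 and 2052 CPM in NK cells, a log2 difference of -3.96 (edgeR adjusted p = 0.00016). Prf1 had 65.4, 87.8 and 74.7 CPM in CD8 T cells, against 423, 574 and 554 CPM in NK cells, a difference of -2.63 (edgeR adjusted p = 0.000454). Both were lower in 3 of 3 libraries. Gzmb had 870.5, 307 and 12.5 CPM in CD8 T cells, against 1071, 687 and 113 CPM in NK cells, and did not pass (difference -1.02, edgeR adjusted p = 0.277). The activating receptors Klra4 and Klra8 and the chemokine Xcl1 differed by -7.84, -5.37 and -5.50 on the log2 scale. Without cells with macrophage UMIs, which left 9 CD8 T cells in silk at 2 weeks, 42 of 2800 genes (1.5%) were higher and 80 (2.86%) lower. Leaving out Control cut the calls to 13 higher and 16 lower, and leaving out silk at 2 weeks raised them to 91 and 150.

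The comparison of silk with sponge rests on few cells, 11 against 53 at 2 weeks and 8 against 7 at 4 weeks. A 2-fold difference at both times was seen for 13 of 1184 genes (1.1%) that were higher in silk and 35 (2.96%) that were lower. The lower genes included dividing-cell genes. Cells with at least 2 UMIs of Mki67, Top2a and Stmn1 together were few. They were 9 of 53 and 2 of 7 in sponge at 2 and 4 weeks and 0 of 11 and 1 of 8 in silk. Pclaf, a replication factor, had 0 and 30.3 CPM in silk at 2 and 4 weeks, against 247 and 805 CPM in sponge. Rrm1 and Dut, enzymes of nucleotide supply, had 0 to 60.5 CPM in silk and 106 to 415 CPM in sponge. Hspa1b had 21.9 and 30.3 CPM in silk and 267 and 1000.4 CPM in sponge.

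Fewer genes were higher in silk once macrophage-bearing cells were left out. Cd74, the invariant chain of MHC class II, had 1207 and 121 CPM in silk at 2 and 4 weeks, against 40.3 and 24.4 CPM in sponge, and Ctsd, a lysosomal protease, had 1470 and 605 CPM in silk, against 322 and 195 CPM in sponge. The silk level of Cd74 at 2 weeks came from 2 cells. Without cells with macrophage UMIs 6 genes were higher in silk at both times and 34 lower. Emp1, a membrane protein, had 329 and 151 CPM in silk and 40.3 and 0 CPM in sponge, and Vsir 307 and 212 CPM in silk and 65.4 and 48.8 CPM in sponge.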

How the data were processed

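Single-cell 3' libraries were made with the Chromium v3 kit, per the labels' protocols, and Cell Ranger 3.0.0, Seurat 3.0 and the build mm10 are named, without roles, per the submitters' processing notes. The authors deposited raw UMI counts of 21617 genes in 41191 cells and a table with cell classes and the percent of mitochondrial UMIs (here up to 24.98%). The class NK/T is the authors', taken as deposited, and any doublet removal by them is not given in the sources used here. No doublet caller was run, and cells with 3 or more UMIs of Csf1r, Adgre1, C1qa, C1qb, C1qc, Cd68, Mrc1 and Msr1 were left out in an alternative.

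Counts were summed over the CD8 T cells of each library and expressed as CPM, scaled to 1000000 UMIs. With 1 library a group, granulomas and Control were compared by a size rule with no p-value. Fold intervals (95%) are exact conditional binomial intervals and share intervals are Clopper-Pearson, and both cover counting error only. A limit for 0 counts uses 3 counts over the summed cells. The named genes were the 12 highest and 12 lowest of the granuloma comparison among genes on the same side of Control in all 4 granulomas, up to 3 members of each of 29 lists in each direction with at least 20 UMIs, the 5 highest and 5 lowest of silk against sponge, the 8 of smallest p in each direction of the cell type comparisons, and a fixed set of effector, checkpoint and naive genes. Predicted, ribosomal, mitochondrial, haemoglobin, immunoglobulin, T cell receptor, sex-linked and cell-choosing genes were left out of the ranking. Names given as members of a list that were called, and Rgs2, Cd28, Srgn, Hmgn2, Pcna, Tsc22d3 and Slfn1 among them, were added after their values were seen. The members and lists were chosen with earlier results of these data known.

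CD8 T cells were compared with CD4 T cells (CD3-bearing NK/T cells with Cd4 or Foxp3 UMIs and no Cd8 UMI) and with NK cells by edgeR 4.0.16 (quasi-likelihood test, TMM, R 4.3.3) on counts, with DESeq2 1.42.0 as an alternative. Same-library sums come from the same cell suspension, so the library is the block. On simulated counts of the CD4 comparison with 3045 genes, the step called 4 of 44 genes changed 2-fold, 34 of 42 changed 4-fold, 36 of 36 changed 8-fold and 43 of 44 changed 16-fold, with 3 false calls. The simulation gave every gene the same spread beyond counting error, so its rates need not hold for the real genes. In the real comparison Gzma, at a log2 difference of 4.70, was not called. Upstream sequences are RefSeq's (GRCm38.p6). Of the list genes, 1 is not reported here.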

Additional observations from a re-analysis of the deposited data

Results flagged for a closer look

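Without thinning, the share of CD8 T cells was higher at 4 than at 2 weeks in silk and lower in sponge, and these differences were not tested, since each material and time is 1 library. As a percent of all cells it changed by 0.320 points in silk and by -0.338 points in sponge. As a percent of CD3-bearing NK/T cells it changed by 0.103 points in silk and by -19.6 points in sponge, and as a percent of CD8 plus CD4 T cells by 1.85 points in silk and by -35.5 points in sponge. The silk values rest on 11 cells at 2 weeks and 8 at 4 weeks, and the sponge values on 53 and 7 cells. With cells thinned to 1000 UMIs, the share of CD8 plus CD4 T cells was lower at 4 weeks in silk too, at 17.6% (6 of 34) at 2 weeks and 16.7% (4 of 24) at 4 weeks, and in sponge at 54.1% and 5.88%, so the opposite direction in that share did not hold. It held in the other thinned shares. Of CD3-bearing NK/T cells these were 4.92% and 5.48% in silk at 2 and 4 weeks and 17.6% and 1.18% in sponge. Of all cells they were 0.0587% and 0.217% in silk and 0.268% and 0.0261% in sponge.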

How the results depend on the processing

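The 147 genes higher and 50 lower in granuloma CD8 T cells became 46 and 17 with 200 CPM added, 82 and 24 in thinned cells, and 202 and 78 with 20 CPM added. The lower count was 96 with TMM scaling (123 higher), 106 with 2 or more Cd8 UMIs and 100 for sponge at 2 weeks alone, an alternative chosen after seeing the data. Leaving out a granuloma at a time gave 124 to 172 higher and 53 to 91 lower, the last without silk at 2 weeks. TMM moved the median log2 ratio of all genes to 0.05. In silk against sponge, the 13 higher and 35 lower became 20 and 54 with 20 CPM added, 1 and 3 with 200 CPM, 4 and 66 with TMM, 1 and 12 in thinned cells, 33 higher without limits and 6 higher without cells with macrophage UMIs (chosen after seeing the data). Ratios turned positive for Ifitm3 (0.21 without cells with NK gene UMIs, 0.27 without the tenth of cells with most UMIs), and in the second setting for Lyz2 (0.47), Selenop (0.0920) and Tyrobp (0.0476).

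As a percent of all cells, the CD8 share was 0.187% in granulomas with 2 or more Cd8 UMIs, 0.376% in Control without cells with NK gene UMIs, and in thinned cells 0.140% in granulomas, 0.268% in sponge at 2 weeks and 0.0261% at 4 weeks, and 0.277% in Control. Of the NK/T class it was 6.64% in granulomas (11.5% and 2.28% in sponge at 2 and 4 weeks, 4.10% and 5.23% in silk at 2 and 4 weeks) and 13.6% in Control, and of CD3-bearing cells 11.3% in granulomas (22.9%, 3.37%, 7.24% and 7.34% in that order) and 24.2% in Control.

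Against CD4 T cells, genes higher and lower numbered 6 and 9 by DESeq2, 31 and 94 without a filter, 45 and 45 without cells with macrophage UMIs, 9 and 11 in thinned cells, 41 and 68 with all 5 libraries (chosen after seeing the data), and 0 to 5 and 0 to 7 with a library left out. Against NK cells they numbered 32 and 59 by DESeq2, 90 and 200 without a filter, 18 and 48 in thinned cells, 61 and 132 with all 5 libraries, and 13 to 91 and 16 to 150 with a library left out. Without the library block they fell to 17 and 26 against NK cells and stayed at 0 and 0 against CD4 T cells. The cause of these shifts was not tested. With 7 to 11 CD8 T cells in 3 granulomas, 1 UMI was worth 21.9 to 30.3 CPM, so low genes there rest on a few UMIs.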

Other observations

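Lists of other lymphocyte programmes gave few values in CD8 T cells. Of 7 regulatory T cell genes measured (5 past the limits) Ctla4 was called higher and none lower, with a median log2 ratio of 1.62. A single call among 5 genes is too few to set against the 8.51% of all genes. Tnfrsf4, a costimulatory receptor of regulatory cells, had 181 and 0 CPM in sponge at 2 and 4 weeks and 0 and 60.5 CPM in silk at 2 and 4 weeks, against 4.15 CPM in Control. Type 2 genes gave 2 measured members with a median of -0.06 and type 17 genes 1 member, Maf, at 0.09. Of 6 NK receptor genes measured (3 past the limits) Tyrobp, an adaptor of NK and myeloid cells, was called lower, against 2.9% of all genes. The list median was -0.79, and the log2 ratio of Tyrobp was -0.41 without cells with macrophage UMIs.

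Markers of other cell types were sparse. Summed levels of neutrophil markers were 0 to 65.8 CPM in granulomas and 24.9 CPM in Control, of mast cell markers 0 to 5.03 CPM and 12.5 CPM, of B cell markers 30.3 to 132 CPM and 129 CPM, of endothelial markers 35.2 to 122 CPM and 33.2 CPM, and of gamma-delta T cell markers, which the rule limits, 0 to 65.4 CPM and 29.1 CPM. Dendritic cell markers reached 2282 CPM in silk at 2 weeks, against 97.6 to 212 CPM in the other granulomas and 440 CPM in Control. Fibroblast markers summed to 87.8 to 594 CPM in granulomas and 0 CPM in Control.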
